A study of Mus musculus with 2 samples.

Results

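Cells with a detected Foxp3 transcript were examined in single-cell RNA sequencing of mouse regulatory T (Treg) cells. They were the cells with at least 1 Foxp3 UMI, where a UMI (unique molecular identifier) marks 1 captured RNA molecule, and they numbered 3979 of 23896 kept cells. The study sorted Treg cells labelled with MitoTracker, a fluorescent dye taken up by mitochondria, by flow cytometry into 2 fractions, one high and one low in dye. Both are called Mito-high and Mito-low here and each gave 1 library. Libraries were made with the 10x Genomics 5′ kit, which reads transcripts from the 5′ end. Not given in the sources used here are the tissue, the strain, genotype, sex, age and number of mice, any treatment, and the marker or reporter by which Treg cells were recognised. Of 12352 and 11901 barcodes, 12217 and 11679 had at least 500 genes and at most 20% of UMIs from mitochondrially encoded genes. Members numbered 1953 in Mito-high and 2026 in Mito-low. Each fraction being 1 library, the design has no replicate, so no test was run; every interval below is a 95% interval of counting error only.

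Foxp3 is the forkhead transcription factor that specifies Treg cells and keeps them suppressive. It sustains expression of the interleukin-2 receptor, whose high-affinity chain is encoded by Il2ra, and interleukin-2 signals through STAT5, which in turn maintains Foxp3. FOXP3 also holds down genes of conventional T cells, such as Il2. Its mRNA is scarce, so a droplet assay misses it in many Treg cells, and a cell with no Foxp3 UMI is not thereby a cell without Foxp3.

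The Foxp3 gene lies at chrX:7573644-7595245 on the plus strand (GENCODE annotation of the mm10 build). It overlaps Flicr, a noncoding RNA gene on the same strand, over 7384 bases, so reads from the shared stretch cannot be assigned with certainty. Flicr was counted at 121 and 120 UMIs in members, below the expression filter.

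Because the members were chosen by their Foxp3 UMIs, Foxp3 values are a description. Foxp3 was found in 15.99% of Mito-high cells (exact Clopper-Pearson interval 15.34 to 16.65) and in 17.35% of Mito-low cells (16.66 to 18.05). Most members held a single Foxp3 UMI: 1644 of 1953 in Mito-high and 1675 of 2026 in Mito-low. A second group held 2 UMIs, 258 and 268 cells. In Mito-high 46 cells held 3 and 5 held 4. In Mito-low 64 held 3, 15 held 4 and 4 held 5. Cells just inside the threshold, with 1 Foxp3 UMI, had a median of 6912 and 5192 total UMIs, and those just outside it, with 0, had 5987.5 and 4558. Membership thus moved with depth: in Mito-high the share was 9.14% (7.54 to 10.9) among cells of 3000 to 4000 UMIs and 25.1% (20.7 to 30.1) among cells of 11000 to 12000. After each cell was thinned to 2000 UMIs the shares were 5.34% (4.95 to 5.76) and 7.89% (7.40 to 8.41), with 139 and 491 shallower cells left out.

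**Figure D1:**
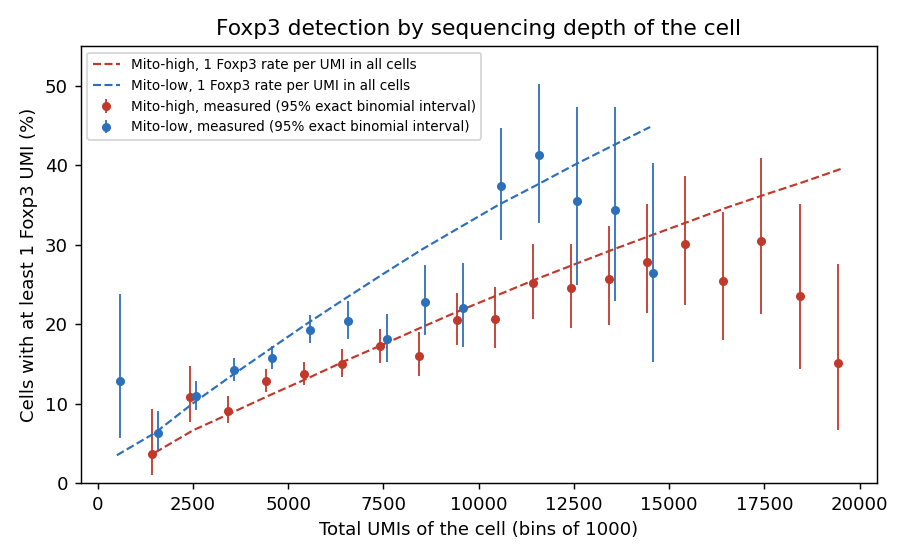
Share of cells with at least 1 Foxp3 UMI (%) by total UMIs of the cell, in bins of 1000 UMIs, with exact binomial intervals; dashed lines give the share if every cell of a library had the same Foxp3 rate per UMI. The share climbed unevenly with depth over the middle of the range in both libraries and was lower again in the deepest bins. These bins lay below the line, each with 53 cells. In Mito-high 15.1% was measured against 39.5% between 19000 and 20000 UMIs. In Mito-low 26.4% was measured against 44.8% between 14000 and 15000 UMIs.

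A single Foxp3 rate per UMI for all cells of a library gives shares of 16.8% and 18.7%. The rate was taken from the same cells, so closeness to the measured shares carries little information. Single bins departed from it in both directions. Between 2000 and 3000 UMIs in Mito-high 10.8% was measured against 6.65%. Between 7000 and 8000 UMIs in Mito-low 18.2% was measured against 26.3%. That same rate gives 236 and 266 cells with 2 or more Foxp3 UMIs, and 309 and 351 were counted. Cells with several Foxp3 molecules were thus more frequent than under a uniform rate. Free RNA was looked for in 25 Mito-high cells with UMIs of at least 4 of 8 B cell markers, chosen after the data were seen. They had a median of 3165 UMIs, against 6132 for all kept cells, and 0 of 25 held Foxp3, which allows a share of up to 12%. That limit lies above the 9.14% measured between 3000 and 4000 UMIs, so these cells are too few to set a background. Mito-low had 0 such cells. Both libraries share 38 barcode sequences, and 8 members carried one; without those barcodes the same 3 and 4 genes stood out in the comparison below.

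The label was checked against Treg markers. Ikzf2, which encodes the Treg transcription factor Helios, had UMIs in 1703 of 1949 matched Mito-high members and 1891 of 2024 matched Mito-low members. Ctla4, the inhibitory receptor of Treg cells, had UMIs in 1844 and 1912. Cd8a, the CD8 T cell coreceptor, had 2 and 1 UMIs in all members. These markers did not separate members from other cells. Against Foxp3-zero cells of the same depth, Ikzf2 stood at 1445 against 1364 CPM (UMIs per 1000000) in Mito-high and 2016 against 1858 CPM in Mito-low. Ctla4 stood at 1100 against 1019 and 1559 against 1526 CPM. The Foxp3-zero cells therefore carried these 2 Treg markers at nearly the level of the members. Il2ra, a further Treg marker, differed more, at 246 against 196 and 198 against 147 CPM.

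Where members sat among the cells was described in 7 clusters built from both libraries without Foxp3. They are named by number and leading genes, and no cell type name is given. Foxp3 was found in every cluster, at 17.2 to 41.6 CPM in Mito-high and 20.8 to 57.6 CPM in Mito-low. The cycling cluster, cluster 5, led by the DNA-replication factor gene Pclaf and the mitotic gene Birc5, had the lowest Foxp3 CPM in both libraries, 17.2 (15.1 to 19.4) and 20.8 (12.5 to 32.5). Its 1028 Mito-high cells nevertheless had the highest raw share of members, 20.1% (17.7 to 22.7), at a median of 12983.5 UMIs, and 4.10% (2.97 to 5.50) after thinning. For this cluster of Mito-high the raw share and the CPM thus stood at opposite ends, and no order is read from its share.

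Cluster 4, led by the sialyltransferase gene St8sia1 and Atp1b1, held Foxp3 at 33.5 (30.6 to 36.6) and 57.6 CPM (45.2 to 72.5). Cluster 6, led by the muscle titin gene Ttn, held 41.6 (23.8 to 67.6) and 57.0 CPM (48.8 to 66.1). It had few UMIs per cell, a median of 3862.5 and 3741, and is also the cluster highest in Gm42418, a transcript overlapping ribosomal RNA. Cluster 2, led by the lymphocyte receptor gene Klrg1 and by Il10, held 17.7 CPM (13.7 to 22.5) in 475 Mito-high cells and 44.4 CPM (41.6 to 47.2) in 4009 Mito-low cells. Cluster 0, led by Igfbp4 and Ly6c1, held 36.5% of Mito-high members and 4.10% of Mito-low members, below its 44.0% and 5.38% of all kept cells. Its share of cells with Foxp3 was 13.2% (12.3 to 14.2) and 13.2% (10.7 to 16.1). After thinning it was 5.11% (4.53 to 5.73) and 6.70% (4.83 to 9.01), beside 5.34% and 7.89% over all thinned cells. Its Foxp3 level was 26.8 and 32.3 CPM, beside 25.8 and 41.0 CPM over all kept cells. A cluster mostly of 1 library may reflect that library.

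**Figure D2:**
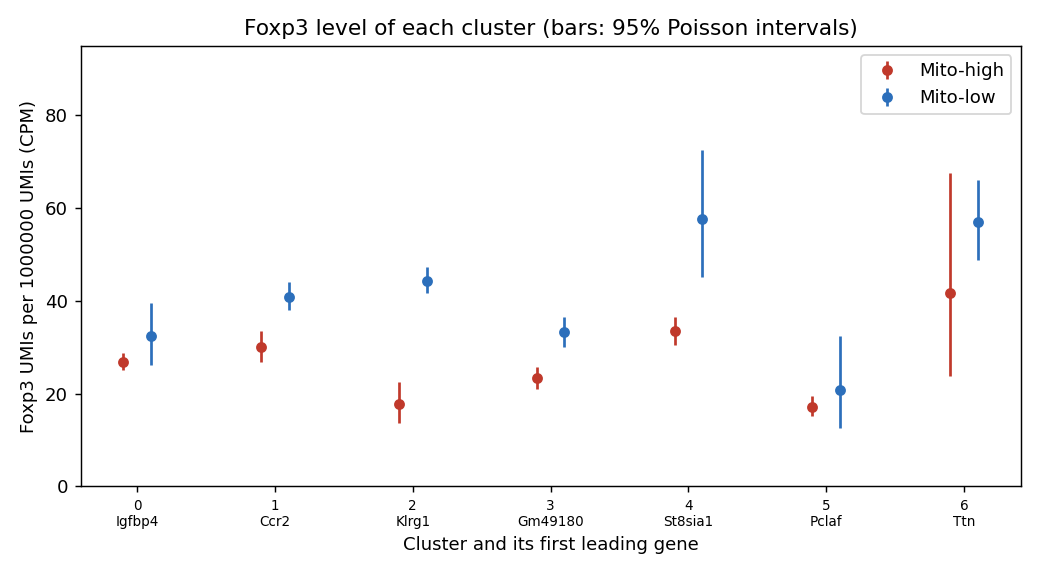
Foxp3 level (UMIs per 1000000 UMIs, with exact Poisson intervals) in each cluster and library; the x axis gives the cluster number and its first leading gene. Mito-low points lie above Mito-high points in every cluster, and the cluster led by Pclaf has the lowest Mito-low level, 20.8.

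To ask which genes went with Foxp3 detection, members were compared within each library with Foxp3-zero cells weighted to the same number of cells per bin of 1000 UMIs. Members without a match, 4 and 2, were left out. The log2 ratio of members over zero cells was taken for 5198 genes that reached 20 CPM in members or zero cells and 50 UMIs in members, in each library, leaving out Foxp3. A gene was called where that ratio was 0.32 or more above or below 0. In Mito-high 17 genes were higher (0.327% of those tested) and 23 lower (0.442%). In Mito-low 42 were higher (0.808%) and 25 lower (0.481%). In both libraries 3 were higher (0.0577%), Il1rl1, Socs2 and Il2ra, and 4 were lower (0.077%), Stmn1, Isg15, Nkg7 and Tipin. No gene was called in opposite directions. At 1.5-fold 0 genes were called in both libraries in either direction.

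The differences were small. The ratios had an SD over genes of 0.11 and 0.13, against a median counting error of 0.054 and 0.061, and 95% of genes lay between −0.19 and 0.22 in the dye-high fraction and between −0.21 and 0.26 in the other. The 2 libraries hold different cells, and across the 5198 genes their ratios correlated with Pearson's r of 0.555 and Spearman's rho of 0.576. Genes are not independent replicates. Both ratios were above 0 for 2371 genes and below 0 for 1495. Scaling shifted the split of calls: with edgeR's TMM factors 8 were higher and 32 lower in Mito-high. In Mito-low they were then 17 and 58, and with the median gene set to 0 the libraries had 11 and 30, and 24 and 38.

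**Figure D3:**
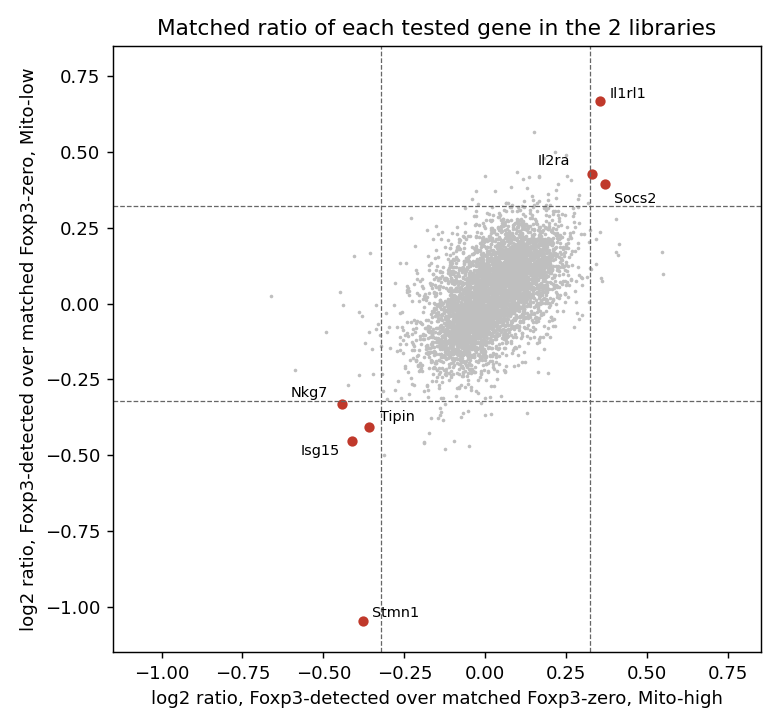
Each point is 1 of 5198 genes, with its log2 ratio of Foxp3-detected over matched Foxp3-zero cells in Mito-high (x) and Mito-low (y); dashed lines mark the calling threshold and the 7 genes past it in both libraries are named. Points scatter around a rising diagonal, with Il1rl1 at 0.36 and 0.67 and Stmn1 at −0.38 and −1.05.

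Of the 3 genes higher in both libraries, Il2ra and Socs2 belong to the interleukin-2 pathway. Il2ra stood at 246 CPM in Mito-high members against 196 in matched zero cells, a log2 ratio of 0.33 (0.28 to 0.38). In Mito-low it stood at 198 against 147 CPM, a ratio of 0.43 (0.36 to 0.50). It was detected in 1303 of 1949 and 984 of 2024 members, and no single cell gave more than 0.622% of its UMIs. Within clusters of at least 100 members, the Il2ra ratio was above 0 in 9 of 9 values, from 0.06 in cluster 4 of Mito-high to 0.62 in cluster 6 of Mito-low. When zero cells were matched on cluster as well, the ratios were 0.27 and 0.40. The Mito-high value was under the threshold there and also without depth matching (0.29), with TMM factors (0.29), with the median gene set to 0 (0.31), with 1 zero cell drawn per member (0.32 when rounded), without the deepest 5% of cells (0.30) and without the cycling cluster and the B cell-marker cells (0.28).

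Socs2, a suppressor of cytokine signalling induced through STAT5, stood at 40.6 against 31.4 CPM in Mito-high, a ratio of 0.37 (0.24 to 0.49). In Mito-low it stood at 60.3 against 45.9 CPM, a ratio of 0.39 (0.27 to 0.52). Socs2 was past the threshold in both libraries also with cluster matching, at 0.33 and 0.35, and without the deepest 5% of cells, at 0.37 and 0.44. Other genes of the pathway were not called and lay within the range of 95% of genes: Il2rb, the shared beta chain, at 0.12 and 0.18, Stat5a at 0.16 and 0.17, and Stat5b at 0.15 and 0.12. Il2rg, the common gamma chain, was at 0.06 and 0.07.

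Il1rl1, the receptor ST2 for the alarmin interleukin-33 and a marker of tissue Treg cells, stood at 26.7 against 20.8 CPM in Mito-high (0.36, interval 0.20 to 0.51) and 81.6 against 51.4 CPM in Mito-low (0.67, 0.56 to 0.78). The Mito-high value rests on fewer cells, 178 members with 445 UMIs, against 411 members with 996 UMIs in Mito-low. It came to 0.18 in Mito-high without the deepest 5% of cells, to 0.23 when each cell counted alike, to 0.32, just short of a call, with TMM factors, to 0.27 without the cycling cluster and the B cell-marker cells and to 0.30 with cluster matching. Members with 1 Foxp3 UMI had a Mito-high ratio of 0.09 (−0.09 to 0.27).

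The upstream sequence of Il2ra and of an Il1rl1 start site is shown because both genes were higher with Foxp3 in both libraries. The sequences are the 250 bases before the start in RefSeq on GRCm38.p6, 5′ to 3′ on the plus strand, chr2:11642542-11642791 and chr1:40439379-40439628. Capitals mark the forkhead consensus TGTTTAC, read here as its reverse complement GTAAACA.
Il2ra: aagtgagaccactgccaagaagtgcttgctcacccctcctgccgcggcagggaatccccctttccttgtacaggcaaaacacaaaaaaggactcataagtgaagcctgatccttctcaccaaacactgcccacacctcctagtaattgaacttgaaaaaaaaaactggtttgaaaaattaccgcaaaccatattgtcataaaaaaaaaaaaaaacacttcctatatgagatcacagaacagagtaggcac
Il1rl1: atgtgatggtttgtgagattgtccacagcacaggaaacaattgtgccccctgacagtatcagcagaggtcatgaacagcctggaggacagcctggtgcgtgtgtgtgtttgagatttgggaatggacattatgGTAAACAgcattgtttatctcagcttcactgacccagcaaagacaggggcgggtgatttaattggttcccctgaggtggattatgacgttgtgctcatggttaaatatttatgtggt
The Il1rl1 window holds 1 match, 110 bases before the start, and the Il2ra window and the window of the other Il1rl1 start hold 0. TTCNNNGAA, the STAT site, had 0 matches in all 3 windows. Of 32851 mouse windows of this length, 3.17% hold TGTTTAC on either strand and 7.02% hold TTCNNNGAA, and a match is only a description of the letters. Upstream windows of Isg15 and Nkg7 hold 0 TGTTTAC matches, and they hold 0 and 1 TTCNNNGAA matches. Socs2, Stmn1 and Tipin have no entry in the sequence table.

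Of the genes lower in both libraries, Isg15, a ubiquitin-like protein induced by interferon, was called under every alternative except a 1.5-fold threshold and members of at least 2 Foxp3 UMIs. It stood at 65.2 against 86.8 CPM in Mito-high (−0.41, interval −0.51 to −0.32) and at 154 against 211 CPM in Mito-low (−0.45, −0.53 to −0.38). Its ratio was below 0 in 8 of 9 cluster values, and with cluster matching it was −0.41 and −0.39. Members with 2 or more Foxp3 UMIs stood at −0.11 (−0.30 to 0.08) in Mito-high and −0.66 (−0.83 to −0.48) in Mito-low.

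Nkg7, a granule protein gene of cytotoxic lymphocytes, stood at 45.3 against 61.6 CPM in Mito-high (−0.44, −0.56 to −0.33) and 59.5 against 74.9 CPM in Mito-low (−0.33, −0.45 to −0.21). It was the 1 gene of the 5 CD8 T cell markers that passed the expression filter. The markers summed to 53.9 CPM in members and 72.5 CPM in zero cells of Mito-high and to 65.2 and 80.7 CPM in Mito-low. Cd8a and Gzmk, a granule protease gene, each stood below 1 CPM in members and in zero cells. Up to 5.10% of the Nkg7 UMIs came from 1 cell. Its ratio was below 0 in 5 of 9 cluster values. In cluster 0 of Mito-high it was 0.74 (0.35 to 1.13), from 70 UMIs. Without the deepest 5% of cells it was at −0.15 in Mito-low. Nkg7 was not called in both libraries there, with bins of 500 UMIs, without depth matching or with cluster matching. The same held with the mean of each cell's CPM. It also held without the cycling cluster and the B cell-marker cells, and without the cluster highest in Gm42418.

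Stmn1, a microtubule regulator high in dividing cells, and Tipin, a replication fork protein gene, were lower only under some settings. Stmn1 stood at 182 against 237 CPM in Mito-high (−0.38, −0.44 to −0.32) and 14.8 against 30.5 CPM in Mito-low (−1.05, −1.32 to −0.77). Tipin stood at 42.4 against 54.5 CPM (−0.36) and 17.3 against 22.9 CPM (−0.41). Without matching on depth, the Mito-high ratios were 0.21 for Stmn1 and 0.05 for Tipin. Without the deepest 5% of cells Stmn1 was at 0.01 in Mito-high. Its Mito-low ratio was then −0.25, and without the cycling cluster and the B cell-marker cells the libraries had −0.05 and −0.36. Tipin was then at −0.12 and −0.18.

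A closer look was taken at members with more Foxp3 UMIs, each group matched anew to zero cells. Members with 1, at least 2 and at least 3 Foxp3 UMIs numbered 1641, 308 and 51 in Mito-high. In Mito-low they numbered 1673, 351 and 83, and the last group is contained in the one before. With at least 2 Foxp3 UMIs, 415 and 605 of 5113 tested genes were called higher and 183 and 209 lower. Over all members, 17 and 42 of 5198 were higher and 23 and 25 lower. Larger ratios in the smaller groups were thus not particular to the genes named below. Il2ra ratios were 0.30, 0.46 and 0.86 in Mito-high and 0.34, 0.73 and 1.11 in Mito-low. Its counting intervals were 0.63 to 1.08 and 0.89 to 1.32 with at least 3 UMIs, beside 0.25 to 0.36 and 0.27 to 0.42 with 1 UMI. They leave out variation between cells, and the difference was not tested. Itgae, the integrin chain CD103 that binds epithelial cadherin, went from 0.04 over 0.71 to 1.30 and from 0.35 over 0.97 to 1.12. Within clusters, over all members, its ratio was above 0 in 6 of 9 values and below 0 in 3, from −0.35 to 0.47. Socs2 went from 0.34 over 0.51 to 0.84 and from 0.23 over 0.94 to 0.99.

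Icos, a costimulatory receptor, stood at 0.10 with 1 UMI and 0.45 with at least 3 in Mito-high, and at 0.27 and 0.49 in Mito-low. Satb1, a chromatin organiser needed for Treg development, went from 0.16 to 0.32 and from 0.27 to 0.79. Foxp1, a related forkhead factor, went from 0.18 to 0.48 and from 0.12 to 0.64. Nkg7 ran the other way, at −0.36, −0.87 and −1.69 in Mito-high and −0.22, −0.80 and −1.82 in Mito-low, the last values from 8 and 16 UMIs.

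Several Treg markers climbed less than Il2ra, or not at all. Over all members Ikzf2 was at 0.08 and 0.12 and Ctla4 at 0.11 and 0.03. Ikzf2 was at 0.19 and 0.26 with at least 3 Foxp3 UMIs, and Ctla4 at 0.14 and 0.22. Tnfrsf18, the receptor GITR, was at −0.41 (−0.73 to −0.08) and −0.03 (−0.24 to 0.18). Il1rl1 had ratios of 1.18 and 0.82 with at least 2 UMIs, but −0.31 (−1.31 to 0.70) with at least 3 in Mito-high, from 8 UMIs. Malat1, a nuclear RNA that also tracks RNA quality, moved with Foxp3 too, from 0.13 and 0.17 over all members to 0.34 and 0.46 with at least 3 UMIs. Its part in the other values was not tested.

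**Figure D4:**
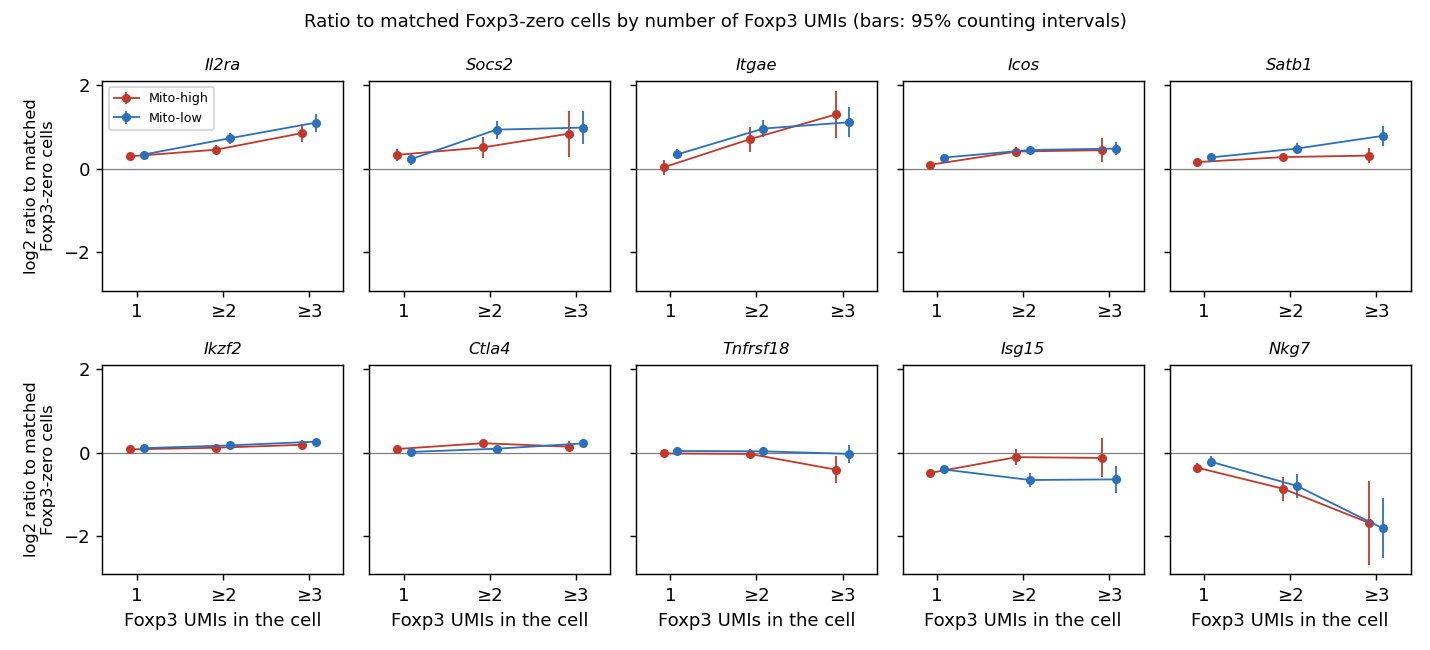
Log2 ratio to matched Foxp3-zero cells (y) for members with 1, at least 2 and at least 3 Foxp3 UMIs (x), for 10 genes in each library; bars are counting intervals. Il2ra and Itgae points climb to between 0.86 and 1.30 and Nkg7 points drop to −1.69 and −1.82, while Ikzf2 and Ctla4 points stay at or below 0.26.

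Gene lists place these genes in context, beside medians over all tested genes of 0.02 in Mito-high and 0.03 in Mito-low. Of 21 genes of Treg identity and the interleukin-2 receptor, 19 passed the filter. In Mito-high 2 were called higher, Il2ra and Socs2, and in Mito-low 3, with Itgae at 0.48. None was called lower, and the medians were 0.08 and 0.12. Over all 5198 tested genes, 0.327% were called higher in the dye-high fraction and 0.808% in the other. The all-gene medians depended on scaling and were −0.014 and −0.027 under TMM factors. Both ratios were above 0 for 13 of the 19 and below 0 for 1, Izumo1r, the folate receptor FR4, at −0.0091 and −0.064. Of all 5198 tested genes, 2371 had both ratios above 0 and 1495 had both below 0. Itgae was at 0.18 in Mito-high. Ikzf4, which encodes the Treg factor Eos, was at 0.12 and 0.06, and Lrrc32, the surface anchor of latent TGF-beta, at 0.11 and 0.22. Tnfrsf18 was at −0.02 and 0.04 and Nrp1, a receptor of thymus-derived Treg cells, at 0.08 and 0.01. Tnfrsf4, the receptor OX40, was at −0.10 and 0.07. Gpr83, a Treg-associated receptor, did not pass the filter.

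Among 23 suppressive and effector molecules 11 passed, with medians of 0.04 and 0.14, and Il1rl1 was the 1 called gene in both libraries. Icos was at 0.16 and 0.31, and Nt5e, the adenosine-producing enzyme CD73, at 0.17 and 0.21. Areg, the tissue-repair factor amphiregulin, was at 0.01 and 0.30. Lgals1, the lectin galectin-1, was below 0 in both, at −0.21 and −0.20. Il10, the suppressive cytokine, did not pass the filter in Mito-high; it stood at 16.4 against 16.4 CPM there and 145 against 115 CPM in Mito-low.

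Of 36 transcription factors that bind or act with FOXP3, 35 passed and 24 were above 0 in both libraries, against 3 below 0 in both. None was called, and the medians were 0.08 and 0.13. The all-gene counts for these signs were 2371 and 1495 of 5198. Satb1 was at 0.18 and 0.32, Foxp1 at 0.19 and 0.17, Foxo1 at 0.17 and 0.14, and Gata3, a factor of tissue Treg cells, at 0.11 and 0.24. Ezh2, the histone methyltransferase, was at −0.17 and −0.19.

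Genes repressed by FOXP3 or typical of conventional T cells were not lower as a list. Of 21, 12 passed, 0 were called and the medians were 0.13 and −0.01. Lef1, a factor of resting T cells, was at 0.25 and 0.19 and Il7r, the interleukin-7 receptor, at 0.15 and 0.19. Tcf7, a partner of Lef1, was at −0.07 and −0.24. Cd40lg, the helper ligand, did not pass the filter; it was at 11.3 against 12.8 CPM and 20.6 against 24.0 CPM. Il2, the cytokine that FOXP3 holds down, had 14 and 7 UMIs in members. Of 25 chemokine receptors and integrins 17 passed, with medians of 0.07 and 0.05: Ccr2, a receptor for monocyte chemokines, was at 0.41 and 0.20, Ccr4 at 0.17 and 0.42, and the laminin-binding Itga6 at 0.24 and 0.30.

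Of 25 genes of T cell receptor signalling and early response 23 passed, with medians of 0.03 and 0.02. The 1 called was Egr1, an early growth response factor, at −0.14 and −0.34. Of 18 genes of the TNF receptor superfamily and its adaptors 10 passed and 0 were called, with medians of −0.02 and 0.05. Tnfrsf9, the receptor 4-1BB, was at −0.03 and 0.09, and Tnfrsf1b, the TNF receptor TNFR2, at −0.02 and 0.18. With TMM factors the medians changed sign for the receptor signalling list in both libraries and, in Mito-low, for the chemokine, TNF receptor and copper lists. Of 7 neighbours of Foxp3 on the X chromosome 1 passed, Gpkow, at −0.06 and −0.14, and Flicr stood at 7.25 against 6.68 CPM (0.12) and 9.83 against 6.91 CPM (0.50).

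Genes of mitochondria and metabolism, the subject of the dye sort, differed little. All 13 mitochondrially encoded protein genes lay between −0.09 and 0.13, and these transcripts made up 3.37% of member UMIs against 3.43% in zero cells of Mito-high, and 3.15% against 3.17% in Mito-low. Of 50 nuclear genes for respiratory chain and ATP synthase subunits, 42 were below 0 in both libraries and 1 above 0 in both. None was called, and the medians were −0.08 and −0.08. Ndufa4 was at −0.13 and −0.14, and Atp5g1, a proton-channel subunit of the ATP synthase, at −0.08 and −0.23. Among 14 tested glycolysis genes the medians were −0.05 and −0.08. Pgam1, phosphoglycerate mutase, was at −0.35 and −0.23, and Hk2, hexokinase 2, at 0.32 and 0.24.

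The series title names copper, and of 18 genes of copper transport and binding 9 passed, with 0 called and medians of −0.04 and 0.05. Atox1, the copper chaperone to secretory pumps, was at −0.04 and −0.07 and Mt1, a metallothionein, at −0.21 (−0.38 to −0.04) and 0.10 (−0.03 to 0.23). Slc31a1, the copper importer CTR1, did not pass the filter; it stood at 13.3 against 10.99 CPM and 13.6 against 11.7 CPM.

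In some groups other than Treg genes the ratios lay mostly on 1 side of 0, and in others they were mixed. Few or no members were called. Over all 5198 genes, 2371 were above 0 in both libraries and 1495 below 0 in both. All 9 tested cell cycle genes were below 0 in Mito-high and 8 of them in both libraries, with medians of −0.20 and −0.15; Mcm3, a replicative helicase subunit, was at −0.28 and −0.29. These signs depended on the matching: without it Mcm3 was at 0.23 and 0.098, and the topoisomerase gene Top2a was at 0.36 in Mito-high, against −0.17 with it. Cytosolic ribosomal protein genes were below 0 in both libraries for 33 of 37, with medians of −0.02 and −0.09. All 7 genes of the RNA quality list were above 0 in both libraries, with medians of 0.09 and 0.17. Of 11 tested interferon-induced genes 6 were below 0 in both and 4 above 0 in both, with medians of −0.07 and −0.23. Irf7, the interferon regulatory factor, was at −0.18 and −0.27, and Gbp4, a guanylate-binding protein, was at 0.19 and 0.05. Of 22 dissociation and heat stress genes 19 passed, with medians of −0.0043 and −0.047; the chaperone genes Hspa8 and Hspd1 were at −0.10 and −0.14 in Mito-high and −0.16 and −0.31 in Mito-low.

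Ratios also moved with gene length. Across 5196 genes with annotated coordinates, Spearman's rho between ratio and genomic span was 0.51 in Mito-high and 0.57 in Mito-low. Of 4 equal groups by span, the shortest, with a median span of 5518 bases, had median ratios of −0.04 and −0.06, and the longest, at 113865 bases, 0.10 and 0.13. The part of length in the lists' medians was not tested.

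Markers of other cells stayed low. The 10 B cell markers summed to 62.7 CPM in Mito-high members against 98.2 CPM in zero cells, and to 103 and 104 CPM in Mito-low; Cd74, an antigen-presentation chaperone, held most of it. In Mito-high Cd74 was at −0.44, and at −0.24 without the cycling cluster and the B cell-marker cells. The 7 myeloid markers summed to 87.9 against 84.99 CPM and 106 against 102 CPM, nearly all from Cst3. The 6 NK markers summed to 2.04 against 2.17 CPM and 2.13 against 1.88 CPM, and Ncr1, Klre1 and Klra8 were at 0 UMIs in members of both libraries.

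**Figure D5:**
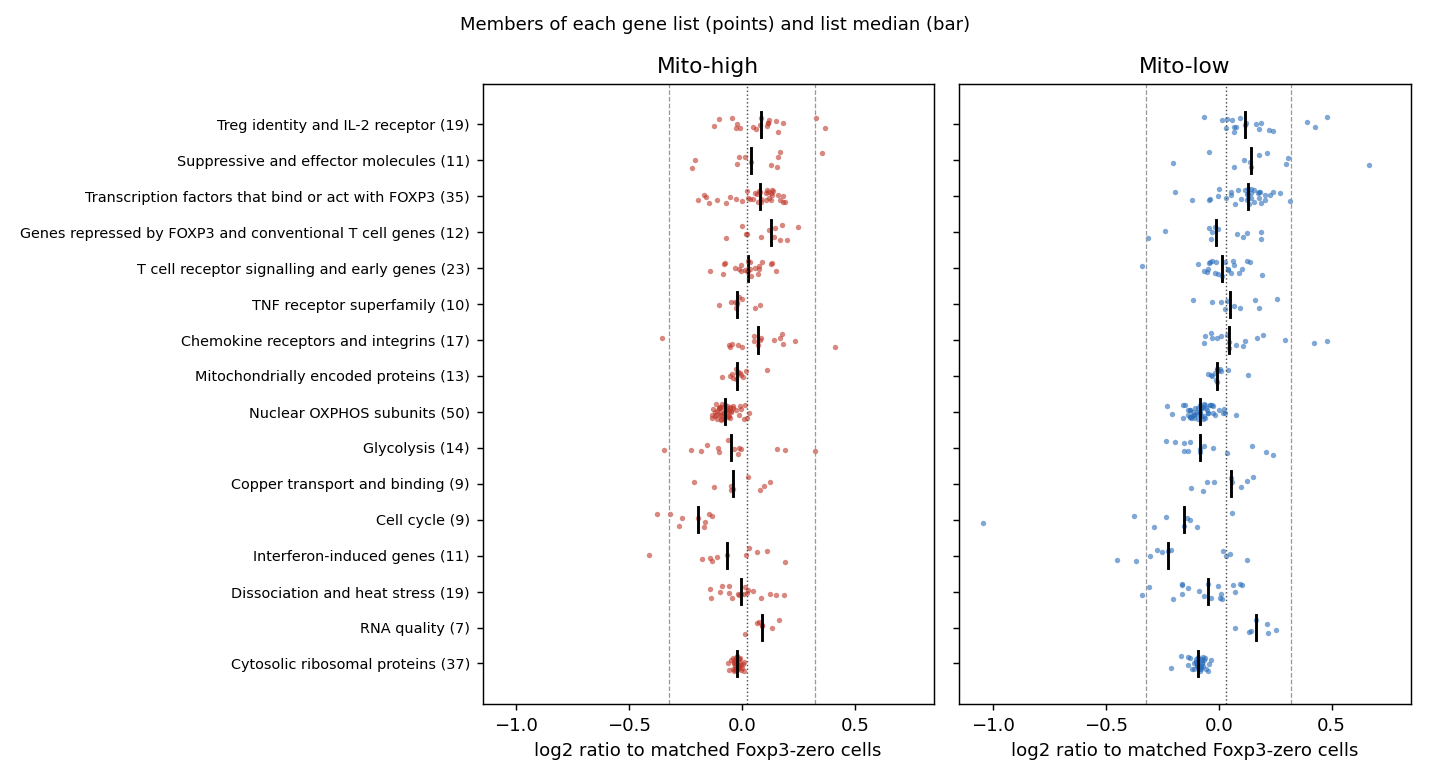
Log2 ratio of Foxp3-detected over matched Foxp3-zero cells for the tested members of 16 gene lists (points; number tested in brackets), with list medians as bars, the all-gene median dotted and the calling threshold dashed. Nuclear OXPHOS subunits cluster just below 0 in both panels, with medians of −0.08, and the cell cycle list has medians of −0.20 and −0.15.

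Called in 1 library alone were 33 genes for Mito-high. For Mito-low they were 60, and a call in 1 library does not show that the libraries differ. The difference of the 2 log2 ratios is therefore given for those with the largest. Higher in Mito-high alone, Pak1, a kinase downstream of Rac, was at 0.55 and 0.10, a difference of 0.45 (0.20 to 0.70). Ust, a sulfotransferase gene, was at 0.55 and 0.17, and its difference was 0.38 (0.12 to 0.64). Tasor, a subunit of a silencing complex, was at 0.36 and 0.08, and Gm26542, a gene without an assigned function in the files, at 0.36 and 0.07. Without depth matching Tasor (0.25) and Gm26542 (0.27) were not called in Mito-high.

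Lower in Mito-high alone were Il1r2, the decoy receptor for interleukin-1, at −0.66 and 0.03, with a difference of −0.69 (−0.93 to −0.45), and Rpa2, a single-strand DNA binding subunit, at −0.41 and 0.16. Ccr8, a chemokine receptor of activated tissue Treg cells, was at −0.36 (−0.54 to −0.17) and 0.17 (0.03 to 0.30). Marcksl1, an actin-binding protein gene, was at −0.45 and 0.04. All 4 calls were lost under some alternative: without depth matching Rpa2 was at −0.11 and Marcksl1 at −0.26 in Mito-high, and with at least 2 Foxp3 UMIs Ccr8 was at −0.07 and Il1r2 at −0.24.

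Higher in Mito-low alone were Lta, the cytokine lymphotoxin alpha, at 0.15 and 0.57, Lmna, which encodes nuclear lamins A and C, at 0.00 and 0.42, Uap1, a nucleotide sugar enzyme, at −0.03 and 0.37, and Pdss2, a ubiquinone synthesis enzyme, at −0.04 and 0.35. The Lmna difference was −0.42 (−0.57 to −0.27). Over the alternative settings the Mito-high ratio of Lta ranged from 0.08 to 0.58, so it passed the threshold there under at least 1 of them. Lower in Mito-low alone were Ryr2, a calcium release channel, at 0.13 and −0.36, Pfdn4, a prefoldin subunit, at −0.05 and −0.47, Aifm1, a mitochondrial flavoprotein, at 0.00 and −0.37, and Dohh, a hydroxylase that modifies eIF5A, at 0.02 and −0.36. Members with at least 2 Foxp3 UMIs had a Mito-low ratio of 0.04 for Ryr2, 0.20 for Pdss2, 0.31 for Uap1 and −0.29 for Dohh. Without depth matching Lmna was at 0.26 and Aifm1 at −0.28, and Pfdn4 was at −0.31 without the deepest cells, so these calls were also lost.

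Members of the 2 fractions were also set side by side. Of 5844 genes, 265 were higher in Mito-high members by 1.5-fold or more (4.53%) and 711 lower (12.2%). The same ratio in Foxp3-zero cells followed it closely: Pearson's r across genes was 0.972, and 98.5% of genes lay within 0.32 of it on the log2 scale. The fractions share no cells, but each library's members and zero cells share a library. This comparison was not matched on depth. The largest ratios were those of proliferation genes, with Pclaf at 71.0 against 1.47 CPM (log2 ratio 5.52) and Birc5 at 51.0 against 3.34 CPM (3.90). Zero cells had ratios of 4.66 for Pclaf and 3.94 for Birc5. The Mito-low member values rest on 18 and 41 UMIs. Igfbp4 was at 3.51, Stmn1 at 3.67, Ube2c, a mitotic ubiquitin-conjugating enzyme, at 3.17 and Eno3, an enolase gene, at 3.15.

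At the other end stood Ccl5, a chemokine of effector lymphocytes, at 17.8 CPM in Mito-high members and 314 CPM in Mito-low members (−4.14), beside −3.81 in zero cells. Il10 was at −3.14 and Klrg1 at −3.08, and the less studied genes Frmd5, Nckap5 and Cep112 were at −3.62, −3.61 and −2.97. Among 20 tested cell cycle genes 16 were higher in Mito-high members, with a median of 1.49. Among 19 suppressive and effector molecules 17 were lower, with a median of −1.59, and zero cells had medians of 1.15 and −1.43.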

How the data were processed

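The authors deposited UMI counts without normalization for 32285 features; per the file headers they come from Cell Ranger 7.1.0. Seurat 4.3.0.1 and the build mm10 appear in the submitters' processing notes. Annotation release, use of intronic reads and barcode filter: not given in the sources used here. Depth was 89996794 (Mito-high) and 60688904 (Mito-low) UMIs over all barcodes.

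Counts were summed over members and, weighted per bin of 1000 UMIs, over Foxp3-zero cells. Sums were scaled to CPM without Foxp3, and log2 ratios used a pseudocount of 1, which understates ratios of low genes. Sums have exact Poisson and Fay-Feuer gamma intervals, ratios a log-scale counting interval, and a count of 0 a limit of 3 counts. UMIs of 1 cell are not independent, so these intervals are too narrow for cell-to-cell variation. The comparison of members with matched zero cells was tested on simulated data. In these, 200 genes were changed by at least 1.5-fold among 5270 (Mito-high) and 5596 (Mito-low). All 200 were called in the right direction in each library. Counts were drawn independently and every planted change lay past the calling threshold, so recovery of smaller changes was not tried. Cells were clustered with scanpy 1.11.5 and leidenalg 0.10.2 (2000 variable genes, 30 components, 15 neighbours, resolution 0.6). No doublet caller was run; cells above the 95th percentile of UMIs were left out as an alternative. TMM factors came from edgeR 4.0.16.

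Members and the 21 gene lists were chosen with earlier results of these data known. Named genes are those called in both libraries, the 4 called in 1 library with the largest difference in each direction, up to 4 of each list, the 5 leading genes of each cluster, fixed Treg, copper and mitochondrial genes, and the 6 highest and 6 lowest between fractions; other list genes were chosen after their values were seen, and a few items are not reported here. The fold threshold, bins, matching, filters, scaling and left-out cells were varied (17 alternatives); those leaving out the B cell-marker cells or shared barcodes were chosen after seeing the data.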

Additional observations from a re-analysis of the deposited data

Results flagged for a closer look

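For 29 of 5198 tested genes the ratio of Foxp3-detected over matched Foxp3-zero cells lay above 0 in one fraction and below 0 in the other, with intervals that left out 0 in both. The rule for named genes covers 3 of them, and also Klrg1, which did not pass the expression filter. The differences, Mito-high minus Mito-low, were −0.52 for the chemokine receptor gene Ccr8, −0.38 for Klrg1 (−0.24 and 0.14), −0.23 for the calcium-binding protein gene S100a4 and −0.17 for Tnfrsf4, which encodes OX40. S100a4 was at −0.11 and 0.12 and Tnfrsf4 at −0.10 and 0.07, all short of the calling threshold of 0.32. With 1 library per fraction these differences were not tested.

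Foxp3 UMIs also occurred in barcodes that the filters on genes and mitochondrial UMIs had left out: 4 UMIs in 135 Mito-high barcodes and 9 in 222 Mito-low barcodes.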

How the results depend on the processing

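No paired analysis was possible because each fraction is 1 library without a replicate number. The counts of genes called in both libraries, 3 higher and 4 lower, and in 1 library, 33 in Mito-high and 60 in Mito-low, depended on most settings. They were the same 3 and 4 genes with at most 10% mitochondrial UMIs, with at least 1000 genes per cell and without shared barcodes. The other counts, as higher and lower in both and then Mito-high and Mito-low alone, follow. At 1.5-fold they were 0, 0, 2 and 2. Without matching, 1 was lower in both and 19 and 34 were called alone. With matching on cluster as well they were 1, 2, 14 and 38. With 1 zero cell drawn per member 5 were higher, and 51 and 105 were called alone. With at least 2 Foxp3 UMIs, and so fewer members (308 and 351), they were 134, 51, 399 and 615. At 50 CPM they were 1, 2, 6 and 16, from 2769 genes, and with no CPM filter 22, 24, 252 and 405, from 9213 genes. With the median gene set to 0 they were 2, 6, 33 and 54. Without the cluster highest in Gm42418 they were 3, 4, 35 and 60, with Lig1 in place of Nkg7. Bins of 500 UMIs left 2 lower in both, TMM factors gave 1 and 8, and the mean of each cell's CPM gave 1 lower. Without the deepest 5% of cells 1 gene was higher and 1 lower in both, Socs2 and Isg15. Without the cycling cluster and the B cell-marker cells, a setting chosen after seeing the data, they were 1 and 2.

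Among ratios past the calling threshold, those that changed sign were Stmn1 in Mito-high without matching (0.21) and without the deepest cells (0.015), Tipin in Mito-high without matching (0.046), Top2a in Mito-low with cluster matching (0.00070, from −0.38) and Ryr2 in Mito-low with at least 2 Foxp3 UMIs (0.042). The cause was not tested.

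List medians moved with cluster matching for the cell cycle in Mito-high (−0.11) and RNA quality in Mito-low (0.072). With at least 2 Foxp3 UMIs they moved for suppressive molecules in Mito-high (0.23), FOXP3 partners (0.24), mitochondrially encoded proteins (−0.080) and OXPHOS subunits (−0.16) in Mito-low, and ribosomal proteins (−0.066 and −0.16). With the median gene set to 0 the ribosomal medians were −0.043 and −0.12. With TMM factors they were −0.058 and −0.15, and in Mito-low mitochondrially encoded proteins were at −0.067 and OXPHOS subunits at −0.14.

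Thinning moved the shares of cells with Foxp3 to 5.34% and 7.89%, and the spread of shares over Mito-high clusters to 3.65 percentage points. Genes higher in Mito-high members numbered 442 with the median set to 0 and 145 at 50 CPM, where 412 were lower. Depth limits the finer groups: members with at least 3 Foxp3 UMIs numbered 51 and 83.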
